A study of Mus musculus with 6 samples.

Results

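The genes described here are those of interleukin-10 (IL-10), of EBI3 and of the receptor chains that bind IL-10 and the EBI3-containing cytokines. They were chosen by symbol: 7 symbols were listed, and 6 of them (Il10, Ebi3, Il10ra, Il10rb, Il27ra and Il6st) have a row among the 15106 genes of the table. Il12a has no row in the table used here and was not analysed. The libraries were made from T cells sorted by flow cytometry out of the skin of FOXP3-GFP mice aged 6 weeks, in which a fluorescent protein reports the transcription factor FOXP3. The 6 libraries comprised 4 from regulatory T cells, called Tregs, and 2 from effector T cells, called Teffs, and both groups carried the reporter, with no treatment named. The sources used here do not give the gate that defined Teffs, the number of mice behind each library or whether mice were pooled, so p-values measure the spread between libraries, which may be technical.

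IL-10 is a cytokine that restrains inflammation, and Tregs at body surfaces such as skin and gut are a known source of it. It signals through a ligand-binding chain encoded by Il10ra and a shared chain encoded by Il10rb, which in turn use the kinases JAK1 and TYK2 and the transcription factor STAT3. EBI3 is a soluble chain that resembles a cytokine receptor; it pairs with the product of Il27 to form IL-27 and with the product of Il12a to form a cytokine ascribed to Tregs. The IL-27 receptor combines the chain encoded by Il27ra with gp130, the product of Il6st, which also serves IL-6 and its relatives.

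Depth was 4902126 to 7468778 counts in genes per library, so that 3 counts, the smallest number treated as above 0, corresponded to 0.397 to 0.581 CPM, the count of a gene scaled to a common library total. Foxp3, the gene behind the sort, had 103, 233, 154 and 183 CPM in the Treg libraries, in order 1 to 4, against 11.3 and 7.17 CPM in the Teffs. Pan-T-cell markers (7 of 7 with counts in every library) summed to 4398 to 8549.7 CPM in Tregs and to 7982 and 8562 CPM in Teffs. Treg 3 stood apart in transcripts of fibroblasts and keratinocytes. Its 6 fibroblast markers summed to 1994 CPM and its keratinocyte markers, 5 of 6 with a row, to 685 CPM. Teff 1 had 176 and 98.0 CPM of the same lists, and the other libraries had at most 8.30 and 39.1 CPM. Markers of macrophages and monocytes (8 of 9 with a row) summed to 171 to 581 CPM in Tregs and to 254 to 296 CPM in Teffs, with the highest sum in Treg 4. That library also had the highest dendritic and Langerhans cell sum, 149 CPM, against at most 46.2 CPM elsewhere. The same held for NK cell markers (24.0 CPM, against at most 9.11 CPM) and the mast cell marker Kit (26.1 CPM, against at most 8.41 CPM). Sums of 3 other lists were lower in each Treg library than in either Teff library. CD8 T cell markers (Cd8a and Cd8b1) summed to 0.180 to 65.6 CPM in Tregs and to 142 and 93.6 CPM in Teffs. Gamma-delta T cell markers (2 of 4 with a row) had 0 in every Treg library and 15.5 and 14.9 CPM in Teffs. Endothelial markers (3 of 4 with a row) had 16.1 to 66.1 CPM in Tregs and 88.8 and 121 CPM in Teffs. Most of these sums came from Pecam1, at 82.3 and 121 CPM in Teffs. Vwf had 0 in every Treg library and 3.84 and 0.388 CPM in Teffs. The groups of Cdh5 overlapped, with 7.89 CPM in Treg 3 and 2.65 and 0 CPM in Teffs. In bulk libraries such as these, fewer cells of a type and less RNA per cell cannot be told apart.

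Il10, Ebi3, Il10ra and Il6st had mean levels between 3.66 and 133 times as high in Tregs as in Teffs, whereas Il27ra averaged 439.8 CPM in Tregs and 468 CPM in Teffs. For 5 of the 6 genes each Treg library exceeded each Teff library, against 5.51% of the 11775 genes tested, and for 0 of the 6 it was the reverse (9.49% of genes tested). The median log2 fold change of the 6 genes was 2.36, and that of all tested genes was 0.07. Over the tested genes, Spearman correlations of log2 CPM were 0.649 to 0.748 between Treg libraries and 0.883 between the Teff libraries. Between Treg and Teff libraries they were 0.7 to 0.815, so Tregs were no more alike among themselves than they were like Teffs. In edgeR's quasi-likelihood test, with p-values adjusted over all tested genes, 0 of the 6 passed the threshold of 0.05, against 0.0425% of all genes tested (5 genes), while 4 of the 6 had an unadjusted p under 0.05 (4.73% of all genes). DESeq2's Wald test passed 3 of the 6 (Il10, Ebi3 and Il10ra), against 1.78% of the genes to which it gave an adjusted p. Foxp3, the gene behind the sort, had a log2 fold change of 4.19 ± 0.61 (SE). It did not pass in edgeR either (adjusted p = 0.131), except with no filter on low counts (0.0415). DESeq2's Wald test passed Foxp3 (adjusted p = 9.49e-11). The authors' deposited table holds an FDR under 0.05 for Il10 alone of the 6, against 0.285% of its genes. These genes were chosen with earlier results of these data known, so the shares describe them and do not test them as a set.

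**Figure D1:**
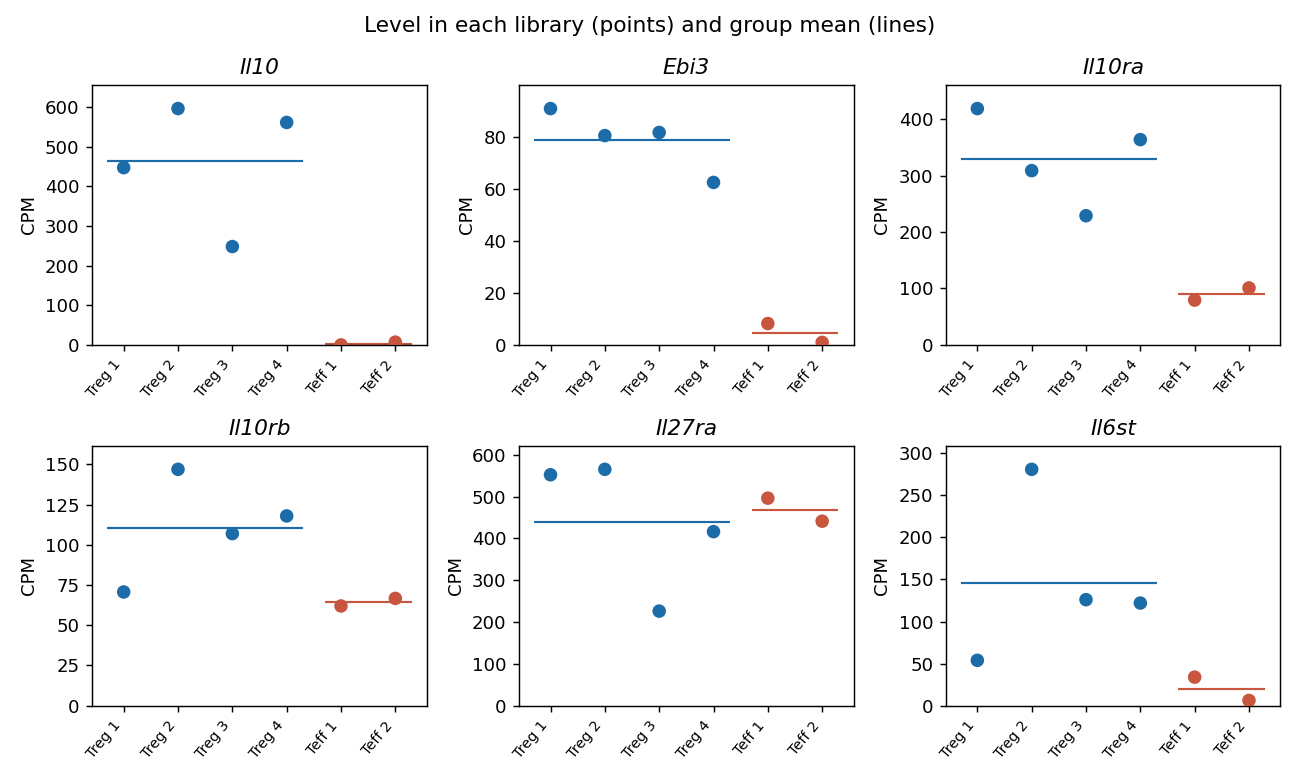
Level of each gene in CPM (vertical axes, each starting at 0) in the 4 Treg libraries (blue) and the 2 Teff libraries (red); points are libraries and horizontal lines are group means. Il10 spans 248 to 596 CPM in Tregs and 0 to 6.98 CPM in Teffs, whereas the Treg and Teff points of Il27ra overlap.

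Il10 showed the widest separation. Treg libraries 1 to 4 had 447, 596, 248 and 561 CPM, from 2476, 3724, 1412 and 3933 counts. Teff 1 had no counts at a depth where 3 counts would be 0.397 CPM, and Teff 2 had 36 counts, or 6.98 CPM with an exact 95% Poisson interval of 4.89 to 9.66 CPM that covers counting error only. Even the lowest Treg library was thus 35.5 times as high as the higher Teff library.

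The log2 fold change of Il10 was 7.09 ± 1.55 (SE), with an adjusted p of 0.344 in edgeR. This exceeded the log2 fold change of 99.3% of tested genes. The size depends on which Teff library is used. Tregs averaged 66.3 times the level of Teff 2 and 1165 times the floor of 3 counts in Teff 1. That floor reflects depth alone, so the 0 counts of 1 library do not bound the level in Teffs. In DESeq2's Wald test the adjusted p of Il10 was 5.85e-10, and over all edgeR settings tried it was 0.0784 to 0.722. The authors' deposited table gives Il10 a log2 fold change of 7.03 and an FDR of 0.00019. The gene lies on chromosome 1, from 131019845 to 131024974 on the plus strand (GRCm38), with 1310 exonic bases that no other annotated gene shares.

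Ebi3, the second ligand gene, was the steadiest of the 6 across Tregs. The Treg libraries had 90.9, 80.5, 81.7 and 62.5 CPM, in order, a coefficient of variation of 15.1%, against 33.9% for Il10. Among Teffs, Teff 1 had 8.21 CPM and Teff 2 had 0.969 CPM. The second of these rests on 5 counts, with a 95% Poisson interval of 0.315 to 2.26 CPM. That interval lies below the one of Teff 1, 6.29 to 10.5 CPM, so the Teff libraries differed by more than counting error, and both stayed below every Treg library.

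The log2 fold change of Ebi3 was 4.09 ± 1.06 (SE), with an adjusted p of 0.572 in edgeR (0.380 to 0.99982 over its other settings) and 6.95e-04 in DESeq2's Wald test. It was 3.24 without Teff 2 and 6.30 without Teff 1. The authors' deposited table has 4.01 for Ebi3, at an FDR of 0.489. Ebi3 lies on chromosome 17, from 55952640 to 55957022 on the plus strand (GRCm38), and 23.4% of its 1154 exonic bases are shared with an exon of Gm16712, annotated on the opposite strand. The sources used here do not give the strand setting of the counting, so reads of this pair cannot be told apart with certainty. Gm16712 itself had 37.9, 42.6, 37.7 and 31.4 CPM in the Tregs, in order, against 4.90 and 3.88 CPM in the Teffs, so its counts, like those of Ebi3, were higher in every Treg library.

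Il10ra, the chain that binds IL-10, was also higher in every Treg library. Levels over the 4 Treg libraries were 419, 309, 229 and 364 CPM, and over the 2 Teff libraries 79.4 and 101 CPM. The Teff libraries were 1.27-fold apart, and the lowest Treg library was 2.27 times as high as the higher of them. For Il10ra the log2 fold change was 1.87 ± 0.41 (SE), with an adjusted p of 0.344 in edgeR (0.325 to 0.99992 over its other settings) and 8.68e-04 in DESeq2's Wald test. It stayed between 1.70 and 2.04 when each library was left out in turn, a narrow range beside that of Il10 or Ebi3. Il10ra lies on chromosome 9, from 45253837 to 45269149 on the minus strand (GRCm38), and shares no exonic base with another annotated gene.

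Il10rb, the shared chain, had means 1.72-fold apart and the narrowest separation of the 5 genes without overlap. The Treg libraries, in order, read 70.7, 147, 107 and 118 CPM and the Teff libraries 62.0 and 66.7 CPM. Its groups did not overlap, but the gap was within counting error: the 95% Poisson interval was 63.9 to 78.1 CPM for Treg 1 and 59.8 to 74.1 CPM for Teff 2. On the log2 scale Il10rb differed by 0.78 ± 0.50 (SE), which did not pass in edgeR (adjusted p = 0.99998). Il10rb lies on chromosome 16, from 91406164 to 91425834 on the plus strand (GRCm38), and 14.9% of its 3808 exonic bases are shared with Gm21970 on the same strand.

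Il27ra, the ligand-specific chain of the IL-27 receptor, was the one gene of the 6 with overlapping groups. Levels over the 4 Treg libraries were 552, 565, 226 and 416 CPM, and over the 2 Teff libraries 496 and 441 CPM. Treg 1 and Treg 2 lay above both Teff libraries, and Treg 3 and Treg 4 below both. On the log2 scale Il27ra differed by -0.09 ± 0.42 (SE), with an adjusted p of 0.99998 in edgeR, and it became 0.13 without Treg 3. Il27ra lies on chromosome 8, from 84030294 to 84042589 on the minus strand (GRCm38).

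Il6st, which encodes gp130, had the most uneven level of the 6 within Tregs. The Treg libraries had 53.9, 281, 126 and 122 CPM, a 5.22-fold range, against 33.9 and 6.20 CPM in the Teffs. Every Treg library was above both Teff libraries, the nearest pair being Treg 1 and Teff 1. The Poisson intervals of the Teff libraries, 29.9 to 38.3 CPM and 4.24 to 8.76 CPM, were apart. For Il6st the log2 fold change was 2.86 ± 0.96 (SE), with an adjusted p of 0.721 in edgeR (0.500 to 0.99992 over its other settings) and 0.0534 in DESeq2's Wald test, and it was 2.08 without Teff 2 and 4.53 without Teff 1. Il6st lies on chromosome 13, from 112464070 to 112510086 on the plus strand (GRCm38), and no other annotated gene shares its 11099 exonic bases.

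Ebi3 and Il6st were the 2 genes of the 6 with an entry in the RefSeq table of start sites (GRCm38.p6). Their sequences are shown because no other gene of the 6 had an entry. Both genes were lower in Teff 2 than in Teff 1 and lower in both than in any Treg library. The 250 bases before each start are given 5′ to 3′ on the plus strand, chr17:55952373-55952622 for Ebi3 and chr13:112463820-112464069 for Il6st, with motif matches in capitals.
Ebi3: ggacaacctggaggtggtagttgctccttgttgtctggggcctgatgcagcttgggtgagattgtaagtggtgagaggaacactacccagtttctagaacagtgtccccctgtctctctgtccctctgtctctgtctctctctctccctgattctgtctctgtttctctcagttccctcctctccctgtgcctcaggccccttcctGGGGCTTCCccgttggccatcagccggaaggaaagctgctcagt
Il6st: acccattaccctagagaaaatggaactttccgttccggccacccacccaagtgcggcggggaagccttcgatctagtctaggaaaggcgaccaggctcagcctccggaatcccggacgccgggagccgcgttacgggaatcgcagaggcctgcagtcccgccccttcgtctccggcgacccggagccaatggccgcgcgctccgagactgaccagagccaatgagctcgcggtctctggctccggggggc
The motifs searched on both strands were TGANTCA (AP-1 and BATF), TTCNNNGAA (STAT), GTAAACA (forkhead) and GGGNNTTCC (a loose form of the NF-kappaB site). Ebi3 had 1 match, to GGGNNTTCC, starting 44 bases before the start. Il6st had 0 matches. Over all 32851 windows of that length in the table, 4.98% held GGGNNTTCC, 6.75% TGANTCA, 7.02% TTCNNNGAA and 3.17% GTAAACA. A match describes the letters and does not show binding.

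These levels were set beside the markers of other skin cells. Il10, Il10ra and Il27ra had their lowest Treg level in Treg 3, the library with the highest fibroblast and keratinocyte sums and the lowest T cell marker sum, 4398 CPM. The part of those transcripts in these low values was not tested. Ebi3 was not low in Treg 3. Il6st, which many cell types express, had 126 CPM in Treg 3 and 122 CPM in Treg 4, where the fibroblast sum was 3.85 CPM, and it was highest in Treg 2, where that sum was 4.80 CPM. Of the 8 myeloid markers with a row, 4 to 8 had any counts in each Treg library and 7 in each Teff library. These numbers include markers under the floor of 3 counts. None was at 0 in all Tregs. Lyz2 was the highest of them in Treg 2, Treg 3 and Treg 4, and Csf1r in Treg 1, at 78.1 CPM. The part of myeloid transcripts in the levels of the 6 genes was not tested. Treg markers (Foxp3, Il2ra, Ikzf2 and Ctla4) summed to 329.5 CPM in Teff 1 and 213 CPM in Teff 2. Of these, Ctla4 alone was higher in Teff 2. Ebi3 and Il6st were also higher in Teff 1, and the part of Treg transcripts in their Teff levels was not tested.

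**Figure D2:**
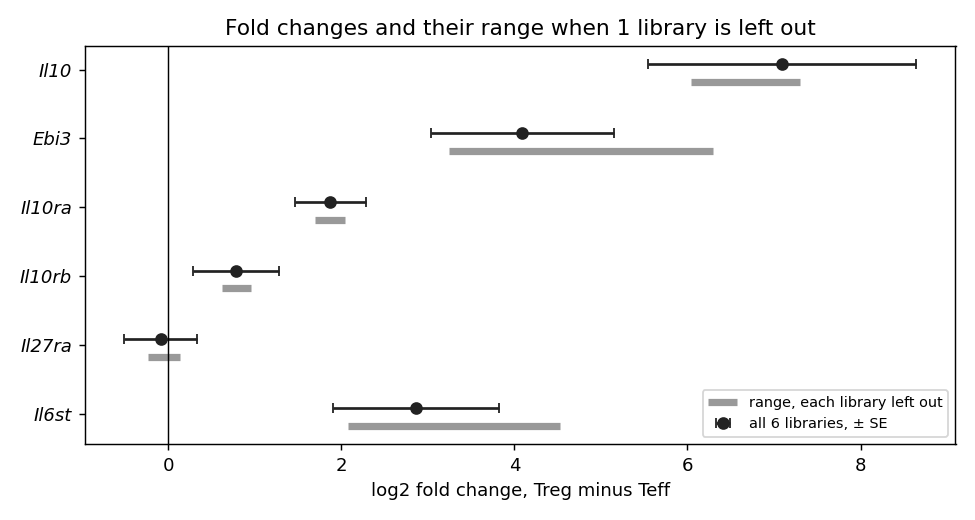
Log2 fold change, Treg minus Teff, for each gene (points with ± SE bars, 4 Treg and 2 Teff libraries) and, in grey, its range when each library is left out in turn. Il10ra, Il10rb and Il27ra stay within narrow ranges, while Ebi3 spans 3.24 to 6.30 and Il6st 2.08 to 4.53; for Il10 the fit without Teff 2 is not drawn, since the remaining Teff library has 0 counts.

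Levels of different genes were compared per kilobase of exonic sequence, as CPM per kb. In Tregs the order was Il10 (353 ± 119.9), Il27ra (126 ± 45.0), Il10ra (94.4 ± 23.1), Ebi3 (68.4 ± 10.3), Il10rb (29.1 ± 8.30) and Il6st (13.1 ± 8.68), each as mean CPM per kb ± SD over n = 4 libraries. Il10 did not overlap with Il27ra, nor Ebi3 with Il10rb, across the Treg libraries. Il27ra overlapped with Il10ra, Il10ra with Ebi3, and Il10rb with Il6st. At this level Il10 stood above 99.3% of the tested genes with an annotated length.

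In Teffs the order was different. Il27ra led at 134 ± 11.1 CPM per kb (SD, n = 2), followed by Il10ra at 25.8 ± 4.39 and Il10rb at 16.9 ± 0.875. Ebi3 (3.98 ± 4.44), Il10 (2.66 ± 3.77) and Il6st (1.81 ± 1.76) were low and overlapped with each other. In per-length level Il10 thus went from above 99.3% of tested genes in Tregs to above 27.2% in Teffs, and Il27ra was above 97.3% and 97.7%.

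Receptor pairs were set against each other within each library. Il10ra stood at 6.44, 2.29, 2.33 and 3.36 times the per-length level of Il10rb in the Tregs, in order, and at 1.40 and 1.65 times in Teff 1 and Teff 2. The ligand-binding chain therefore exceeded the shared chain in all 6 libraries, and by more in each Treg library than in either Teff library. Il27ra stood at 32.5, 6.38, 5.72 and 10.8 times the level of Il6st in the Tregs, in order, and at 46.5 and 226 times in Teff 1 and Teff 2. Here the shared chain gp130 was the scarcer in all 6 libraries, and most so in Teffs, with Treg 1 the nearest Treg library to them. These ratios are built from the same counts as the fold changes and were not tested separately. They describe RNA, and the surface receptor was not measured.

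**Figure D3:**
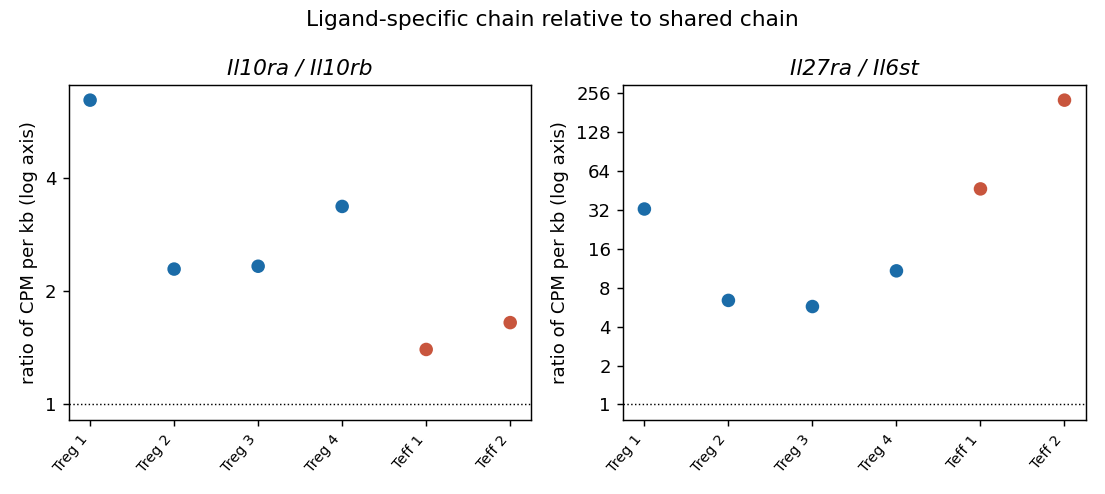
Ratio of the per-length level (CPM per kb) of the ligand-specific chain to that of the shared chain in each library, on log axes, for the IL-10 receptor (left) and the IL-27 receptor (right); Tregs are blue, Teffs red, and the dotted line marks equal levels. Il10ra over Il10rb is 2.29 to 6.44 in Tregs and 1.40 to 1.65 in Teffs, and Il27ra over Il6st is 5.72 to 32.5 in Tregs and 46.5 to 226 in Teffs.

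The genes whose pattern was most like that of Il10 were found by the root mean square difference of centred log2 CPM over the 6 libraries, among 8606 genes. They were Ccr3 (1.01), a chemokine receptor, Ccr1 (1.16), another chemokine receptor, Ikzf4 (1.25), the Ikaros-family factor Eos, Bicd1 (1.68) and Irs2 (1.78), an adaptor of insulin signalling. Each had at most 3.68 CPM in either Teff library and at least 15.7 CPM in every Treg library. Ccr3, the nearest, had 95.2, 157, 217 and 98.0 CPM in the Treg libraries, so its highest Treg library, Treg 3, was the lowest for Il10.

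For Ebi3 the nearest genes lay much closer. They were Il2ra (0.38), the alpha chain of the receptor for IL-2, Zfp948 (0.40), Tnfrsf4 (0.44), which encodes OX40, Sfmbt2 (0.45) and Dst (0.51). Il2ra had 1637, 1202, 1112 and 1394 CPM in the Tregs, in order, against 92.4 and 29.3 CPM in the Teffs. Like Ebi3 it varied little among Tregs and was lower in Teff 2 than in Teff 1. The distance between Ebi3 and Il10 was 2.73, and that between Ebi3 and Il6st was 1.04.

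Related ligands and receptors were counted from lists of the same pathways. Of 45 genes counted, 34 had a row and 27 were tested, and edgeR called 0 of them, against 0.0425% of all tested genes. An unadjusted p under 0.05 was found for 6 of the 27 (4.73% of all tested genes), and DESeq2's Wald test called 3, Maf, Nfil3 and Stat3 (1.78% of the genes to which it gave an adjusted p). Each Treg library exceeded each Teff library for 5 of the 27 (18.5%, against 5.51% of all tested genes) and the reverse held for 2 (7.41%, against 9.49%). The median log2 fold change of the 27 was 0.79. The 7 genes without overlap were singled out after their values were seen: Stat3, Prdm1, Maf, Nfil3 and Batf on the higher side, and Il23r and Bhlhe40 on the lower.

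Few other cytokines of these families were tested. Of 4 further IL-10 family cytokines, Il19 and Il22 had a row and neither passed the filter on low counts. Il19 had 165 counts in Treg 1, or 29.8 CPM, and 0 in every other library. None of Il12b, Il23a and Il27 had a row, so the partner of EBI3 in IL-27 was not analysed. Of 9 cytokines that act through gp130, 3 were tested, with a median log2 fold change of 0.36, and Clcf1 had the highest mean over all 6 libraries, at 34.2 ± 19.5 CPM in Tregs (SD, n = 4) and 48.5 ± 3.47 CPM in Teffs (SD, n = 2). In Tregs alone the mean of Osm, which encodes oncostatin M, was higher, at 43.4 CPM.

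The related receptors that were tested did not separate the groups, apart from Il23r. Il12rb1 had 146, 4.32, 40.0 and 7.56 CPM in the Tregs, in order, against 93.5 and 56.2 CPM in the Teffs. Over the 3 receptors of the IL-12 family the median log2 difference was -2.61, and Il23r, a chain of the IL-23 receptor, had 1 count over all Tregs and 46 over the Teffs (edgeR adjusted p = 0.737). The Treg to Teff ratio of its pooled counts per depth was 0.0113 (exact 95% interval for counting error, 2.80e-04 to 0.0660). The CD8 and gamma-delta T cell marker sums were also lower in each Treg library, and their part in the Il23r values was not tested. Among 4 tested partner chains of gp130, Il6ra, which encodes the IL-6 receptor, had the highest mean, with 108, 289, 111 and 144 CPM in the Tregs, in order, against 81.4 and 135 CPM in the Teffs. As with Il6st, its highest level was in Treg 2. Il20rb, a chain for IL-20 family cytokines, reached 24.9 CPM in Treg 3 and 6.35 in Teff 1, the libraries with the most fibroblast and keratinocyte transcripts, with at most 0.581 CPM elsewhere. The part of those transcripts was not tested.

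Signal transducers below the receptors had a median log2 fold change of 0.79 over 7 tested genes. Stat3, the main transcription factor of the IL-10 receptor, had 393, 455, 401 and 481 CPM in the Tregs, in order, against 152 and 199.6 CPM in the Teffs. The groups were well apart and each was even, and the log2 fold change of Stat3 was 1.30 ± 0.33 (SE), with an adjusted p of 0.572 in edgeR (0.380 to 0.99992 over its other settings) and 0.00474 in DESeq2's Wald test. Jak1, a kinase used by both IL-10 and gp130 receptors, had the highest mean of these genes, with 293, 629, 513 and 695 CPM in the Tregs, in order, against 541 and 640.3 CPM in the Teffs, and its groups overlapped.

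The list of known Il10 regulators had a median log2 fold change of 1.22 over 8 tested genes. Of these, Ahr, Irf4 and Gata3 had overlapping groups, with log2 fold changes of 1.02, 1.03 and 0.39. Maf, an activator of Il10 in T cells, had 601, 1166, 444 and 743 CPM in the Tregs, in order, against 135 and 304 CPM in the Teffs. Its order among Tregs, with Treg 2 highest and Treg 3 lowest, matched that of Il10 at both ends. Batf, Nfil3 and the pan-T-cell marker Lck shared both ends, while Prdm1 did not. A link of any of them to the Il10 level was not tested. For Maf the log2 fold change was 1.75 ± 0.53 (SE), with an adjusted p of 0.721 in edgeR (0.181 to 0.99992 over its other settings) and 0.0292 in DESeq2's Wald test. Prdm1, which encodes BLIMP-1, Batf and Nfil3 were likewise higher in each Treg library, with log2 fold changes of 1.67, 1.41 and 2.32, of which Nfil3 passed DESeq2's Wald test (adjusted p = 0.0218, against 0.380 to 0.99992 over the edgeR settings).

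Bhlhe40, a factor known to repress Il10 in T cells, lay on the other side. The Treg libraries, in order, read 176, 1.92, 71.7 and 147 CPM and the Teff libraries 511 and 359.7 CPM. Every Treg library was below both Teff libraries, with a wide range among Tregs. For Bhlhe40 the log2 fold change was -2.13 ± 1.12 (SE), which did not pass in edgeR (adjusted p = 0.99998) or in DESeq2 (adjusted p = 0.722).

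**Figure D4:**
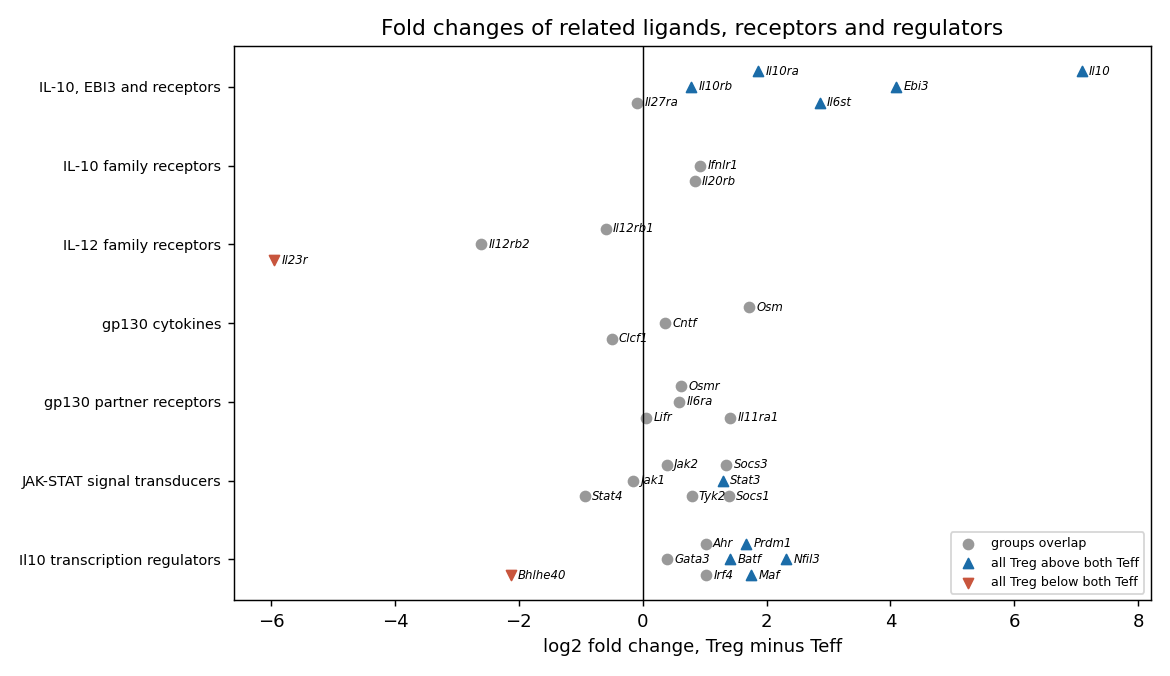
Log2 fold change, Treg minus Teff, of each tested gene (horizontal axis) by gene list (rows, with small vertical offsets for legibility); upward triangles mark genes with all 4 Treg libraries above both Teff libraries, downward triangles the opposite, and grey points overlapping groups. In the top row 5 of 6 genes carry upward triangles, and over the lists below 5 of 27 do; the value of Il23r rests on 1 Treg count.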

How the data were processed

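Per the labels' protocols, RNA of sorted skin T cells was made into cDNA with a SMARTer kit for ultra low input. HTSeq 0.6.1, TopHat2 2.0.12, SAMtools 0.1.19.0, CASAVA 1.8.2, Bowtie2 2.1.0.0 and build mm10 are listed in the submitters' processing notes with no roles. Annotation and strand setting were not found there. The authors deposited 1 table of raw counts per gene. It also holds their own comparison: deposited log2 fold changes and log2 mean CPM, and deposited p-values with FDR.

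The 3 counter rows that name no gene (88% to 90.2% of column totals) entered neither library sizes nor tests. In R 4.3.3, edgeR 4.0.16 was run on genes passing filterByExpr (smallest count 10, 11775 genes), with TMM scaling, group as the single term, and Benjamini-Hochberg adjustment at 0.05; it was tested on simulated data. CPM use TMM-scaled sizes. The SE was taken as the log2 fold change over the root of its F statistic. Il10's and Ebi3's nearest genes used log2 CPM with a prior count of 2 and a mean of at least 10 CPM. Exonic lengths are unions of GENCODE exons (GRCm38), found for 95.7% of tested genes; the library counts may rest on another annotation. DESeq2 1.42.0 and other settings were alternatives. The genes and lists were chosen with earlier results of these data known. Named are the 6 genes, Foxp3, the 5 nearest genes each of Il10 and Ebi3, and each list's most abundant gene; others named were chosen after their values were seen. A gene of the signalling list is not reported here and was left out of the list counts.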

Additional observations from a re-analysis of the deposited data

How the results depend on the processing

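The directions of Il10, Ebi3, Il10ra, Il10rb and Il6st held under every alternative run: other scalings, other filters, DESeq2, the block and each library left out. Il27ra, near 0, turned positive without Treg 3 (range with each library left out -0.24 to 0.13) and with the replicate block (0.26). Il20rb turned negative without Teff 2 (range -0.12 to 3.34) and with the block (-7.03). That range lacks a fit without Treg 3, the only Treg library with counts of Il20rb. Jak1 turned positive without Treg 1 (range -0.31 to 0.05). Treg 3 and Treg 4 have no Teff library with the same replicate number. The block's comparison therefore rests on Treg 1, Treg 2, Teff 1 and Teff 2. Beyond that, the cause of these changes was not tested. With the block Bhlhe40 moved from -2.13 to -4.35 ± 1.53 (SE), Il23r from -5.95 to -7.57 and Il10 from 7.09 to 8.30, with no change of call. The block also moved the median log2 fold change of all tested genes, from 0.07 to -0.64. Over all genes edgeR called 5; it called 19 with no filter, 15 with the replicate block, and 0 to 2 with each library left out (0 except without Teff 1; unadjusted p was under 0.05 for 186 to 779 genes), and DESeq2's Wald test called 183. Of the 6 genes described, 3 passed DESeq2's Wald test and 0 passed any edgeR setting. Leaving out a Teff library leaves 1 Teff library, which is assumed to vary like the Tregs. The labels do not say that replicate numbers pair libraries, so the numbers were not taken as pairs. The difference between Treg 1 and Treg 2 correlated at 0.0661 over tested genes with that between Teff 1 and Teff 2. That value rests on differences of single libraries and cannot decide whether libraries were paired. The block changed no call of the 6 genes. Low counts limit Il10 and Ebi3 in Teffs, where 0, 36, 62 and 5 counts carry the comparison. Teff 1, with 0 counts of Il10, was the deeper Teff library, at 7468778 counts in genes against 4902126 in Teff 2.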

Other observations

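Some genes of these pathways were found mainly in 1 or 2 libraries. Il19, an IL-10 family cytokine, had 165 counts in Treg 1 and none elsewhere. Osm, a gp130 cytokine of activated leukocytes, had 68.9, 73.9, 30.7 and 0 CPM in the Tregs, in order, against 14.4 and 11.8 CPM in the Teffs. Socs3, a feedback inhibitor that binds gp130, had 3.43, 77.8, 8.06 and 59.1 CPM in the Tregs against 5.82 and 23.3 CPM in the Teffs, a range wider within Tregs than between the group means of 37.1 and 14.5 CPM. These genes were chosen after their values were seen.

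The receptor chain of oncostatin M, Osmr, reached 38.9 CPM in Treg 3 and 12.7 in Teff 1, with at most 0.180 CPM elsewhere, and Lifr, the receptor chain for LIF, reached 20.5 and 10.1 CPM in the same libraries, with at most 2.85 CPM elsewhere. Those libraries had the highest fibroblast marker sums, 1994 and 176 CPM, and the part of such cells in these values was not tested.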
